A study of Mus musculus with 6 samples.

Results

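The *Hoxb* cluster on mouse chromosome 11 was followed through every exon-level probe set annotated to exactly 1 of its genes, *Hoxb1* to *Hoxb9* and *Hoxb13*. These were 41 of 58919 tested probe sets and 10 of 5017 genes. A further probe set annotated to both *Hoxb8* and *Hoxb7* was kept out. The knockout group held 3 brain arrays of genotype APPPS1-FVBxABCC1, that is, APPPS1 mice on the FVB strain crossed to a loss of *Abcc1*, an export transporter. The control group held 3 brain arrays of genotype APPPS1-FVB. Both groups therefore carry the APPPS1 transgenes, mutant human APP among them, which a *Thy1* promoter drives in neurons and which lead to amyloid plaques. The labels give no age, sex or brain dissection, and they do not say whether each array is a different animal. The p-values therefore reflect only how far these samples spread, which may be technical. *Abcc1* itself was not analysed here, so the genotype labels were not checked by the targeted gene.

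Hox genes encode homeodomain transcription factors that give cells their place along the head-to-tail axis. Their order on the chromosome follows the order of their expression along the embryo. In the *Hoxb* cluster *Hoxb1* has its front limit in the hindbrain and *Hoxb2* to *Hoxb4* in other hindbrain segments. The limits of *Hoxb5* to *Hoxb9* and *Hoxb13* lie broadly further back. Forebrain and midbrain lie in front of all these limits, which is why *Hoxb* transcripts are used as markers of hindbrain and spinal cord. Retinoic acid and Egr2 help to switch these genes on, Polycomb proteins keep them silent elsewhere, and Pbx and Meis proteins bind DNA together with Hox proteins.

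The sequence upstream of a transcript start is shown for *Hoxb1*, *Hoxb4* and *Hoxb8*, the 3 of 10 members with an entry in the RefSeq promoter table (GRCm38.p6), which span anterior and posterior genes. Each line gives the 250 bases before the start that this table uses, on the plus strand. A gene can have other starts: the *Hoxb8* window lies inside the span of all *Hoxb8* transcripts in RefSeq, and the *Hoxb1* window runs into the span of *Hoxb1*. Capitals mark TGATNNAT, the bipartite site that Pbx and Hox proteins occupy together, and AGGTCA, the core element of retinoic acid and related receptors, both searched on both strands.
Hoxb1, chr11:96365508-96365757: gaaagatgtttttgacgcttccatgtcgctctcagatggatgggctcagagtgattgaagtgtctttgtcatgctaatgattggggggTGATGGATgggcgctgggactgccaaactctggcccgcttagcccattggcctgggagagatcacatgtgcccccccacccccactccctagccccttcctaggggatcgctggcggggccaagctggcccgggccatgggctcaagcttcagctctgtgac
Hoxb4, chr11:96318017-96318266: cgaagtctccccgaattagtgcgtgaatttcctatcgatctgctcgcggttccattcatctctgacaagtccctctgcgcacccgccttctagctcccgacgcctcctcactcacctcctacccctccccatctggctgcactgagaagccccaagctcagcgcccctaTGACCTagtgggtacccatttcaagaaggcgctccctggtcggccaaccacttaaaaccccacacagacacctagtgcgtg
Hoxb8, chr11:96281655-96281904: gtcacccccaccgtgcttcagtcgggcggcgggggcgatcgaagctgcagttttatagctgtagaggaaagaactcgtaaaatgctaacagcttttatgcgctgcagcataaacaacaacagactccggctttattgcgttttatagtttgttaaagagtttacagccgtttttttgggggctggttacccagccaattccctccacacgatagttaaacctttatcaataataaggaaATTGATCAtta
*Hoxb1* held 1 TGATNNAT on the plus strand, *Hoxb8* held 1 on the minus strand and *Hoxb4* held 1 AGGTCA on the minus strand, and the marked sites do not overlap. Over 32851 RefSeq windows of the same length, 7.68% held TGATNNAT and 14.02% held AGGTCA. The CG dinucleotide occurred 7 times in *Hoxb1*, 14 times in *Hoxb4* and 12 times in *Hoxb8*, against a median of 6 over all windows. A match is a string of letters and says nothing about binding in these brains.

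Signals are on the log2 scale, and those of different probe sets also depend on how well each probe binds, so they were not ranked against each other as expression. They were set instead against the array's dim signals. The limit was the 95th percentile, on the same array, of 178 probe sets of 152 olfactory receptor genes, a family that is mostly silent in brain. It lay at 5.01, 4.95 and 5.07 in knockout arrays 1, 2 and 3 and at 4.95, 5.08 and 5.05 in control arrays 1, 2 and 3. The median of the olfactory receptor probe sets was 3.43, 3.37 and 3.40 in the knockout arrays and 3.38, 3.41 and 3.36 in the control arrays. The groups overlapped in both measures (exact two-sided permutation p = 0.8 for the limit and 0.5 for the median, where 0.1 is the smallest p that 3 against 3 can give).

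Most of the cluster was dim. Of the 41 *Hoxb* probe sets, 14 lay above the limit on all 6 arrays, 5 on some arrays and 22 on none. The 14 made up 34.1%, against 71.2% of all tested probe sets, and they came from 8 genes. *Hoxb8* and *Hoxb13* had 0 probe sets above the limit on all arrays. The single values ran from 2.32 to 6.82, while the median signal of the tested probe sets was 7.05. Even the brightest probe set of the cluster, in *Hoxb9*, was brighter than only 43.8% of the tested ones.

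The choice of dim signals decides how this count reads. Type I keratins and skeletal myosin heavy chains are multi-exon genes of skin and muscle whose loci lie on the same chromosome. Of their probe sets, 43 of 188 (22.9%) and 39 of 191 (20.4%) also lay above the olfactory receptor limit on all 6 arrays, against the 34.1% of the *Hoxb* cluster, a difference that was not tested because probe sets of 1 gene are not independent. With the 95th percentile of these keratin and myosin probe sets as the limit (6.84, 6.90 and 6.89 in knockout and 6.93, 7.01 and 6.97 in control arrays), 0 of the 246 single *Hoxb* values lay above it. That limit was lower in all 3 knockout arrays than in all 3 control arrays (exact two-sided permutation p = 0.1). The 14 *Hoxb* probe sets above the first limit therefore lay within the range of genes of skin and muscle on these arrays. At the olfactory receptor limit, by contrast, 89.1% of 46 probe sets of hindbrain and brainstem neuron markers lay above it. The share was 94.7% of 113 probe sets of general brain markers. These lists were not counted against the keratin and myosin limit, which 47.7% of all tested probe sets exceeded on all 6 arrays. As the mean of its probe sets, *Slc6a4* ran from 6.23 to 6.79, below that limit on each array. *Tph2* ran from 6.35 to 6.99, below it on each array but control 3. *Glra1* ran from 7.18 to 7.64, above it on each array. Such means average bright and dim probe sets, so they are not like the single *Hoxb* values. The means of the 10 *Hoxb* genes over the 6 arrays ran from 3.996 to 5.62. No *Hoxb* value exceeded the upper range of skin and muscle genes, and the members are called *Hoxb* genes here and not hindbrain markers.

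**Figure D1:**
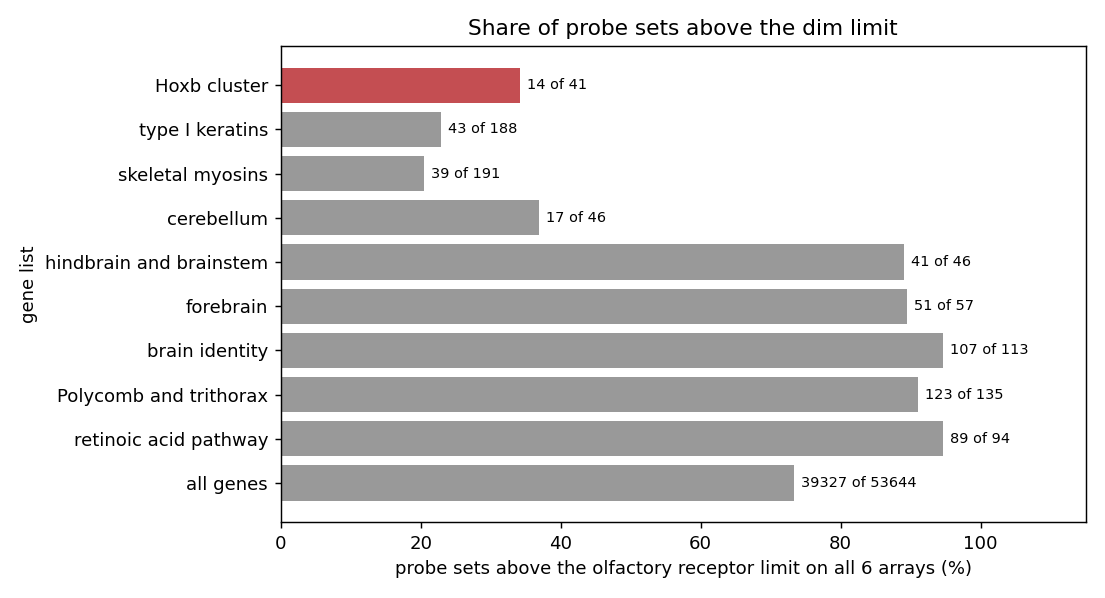
Share of probe sets (%) whose log2 signal lay above the 95th percentile of the olfactory receptor probe sets on all 6 arrays, by gene list, with the counts beside the bars. The Hoxb cluster reached 34.1%, against 22.9% for type I keratins, 20.4% for skeletal myosins and 94.7% for brain identity genes.

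Anterior genes had more probe sets above the olfactory receptor limit than posterior ones, with similar top signals. *Hoxb1* to *Hoxb4* had 9 of 18 (50%) above it on all arrays, with means over the 6 arrays from 2.48 to 6.51 and a median of 5.33. *Hoxb5* to *Hoxb13* had 5 of 23 (21.7%), with means from 2.54 to 6.61 and a median of 4.17. The brightest probe set of all was a posterior one, and the dimmest an anterior one. Within 1 gene, probe sets differed by 0.695 (*Hoxb8*) to 3.72 (*Hoxb2*) on the log2 scale, whereas the 10 gene means spanned 1.62, from 3.996 (*Hoxb13*) to 5.62 (*Hoxb1*). The spread inside genes exceeded that between genes in 8 of the 10 members, the exceptions being *Hoxb1* (1.58) and *Hoxb8*, so no order of expression along the cluster can be read from these signals.

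**Figure D2:**
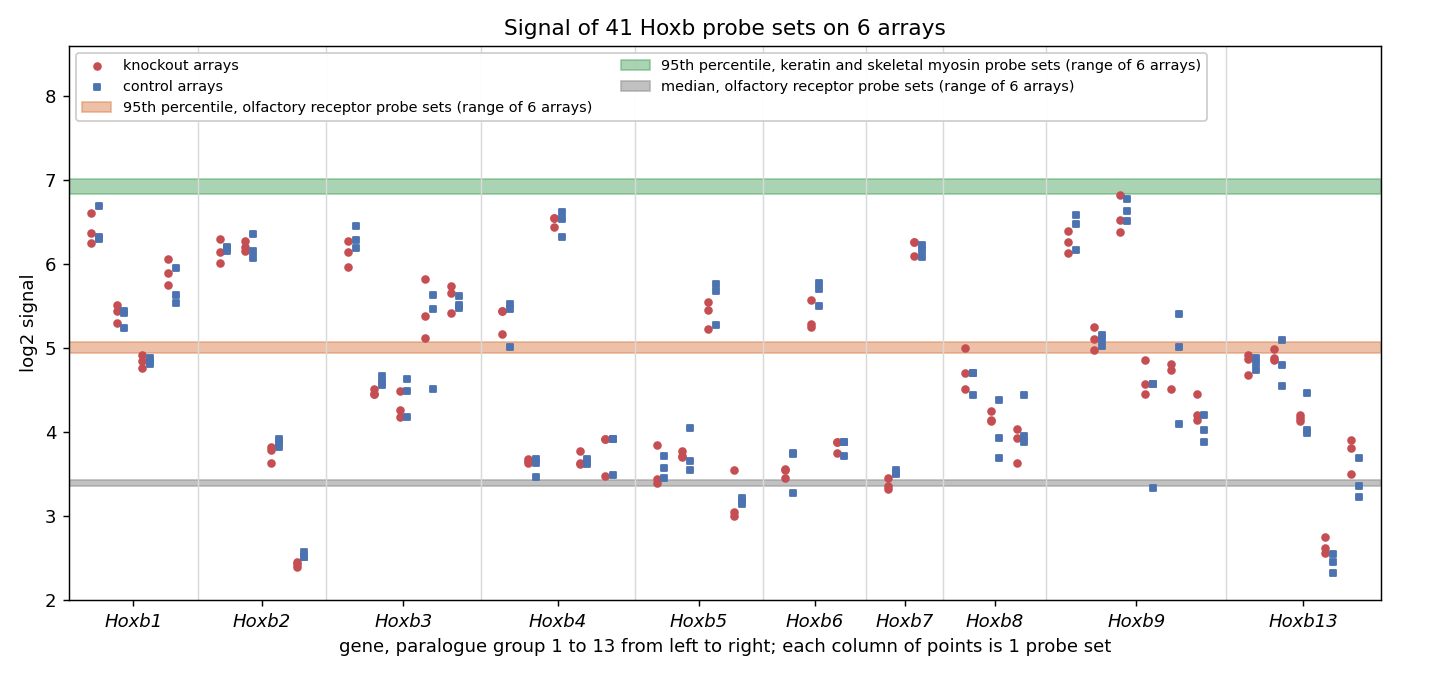
Log2 signal of the 41 Hoxb probe sets, from Hoxb1 at the left to Hoxb13 at the right, with 3 knockout arrays (circles) left of 3 control arrays (squares) in each column. Bands give the range over 6 arrays of the olfactory receptor median, the olfactory receptor 95th percentile and the keratin and myosin 95th percentile (6.84 to 7.01), which no point reaches.

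Of the members, *Hoxb1* held the most probe sets above the olfactory receptor limit, and *Hoxb2*, *Hoxb3*, *Hoxb4* and the posterior *Hoxb9* held 2 each. *Hoxb1*, which sets the identity of the fourth hindbrain segment, had 3 of 4 above it. Its brightest probe set, 10380666, read 6.37, 6.25 and 6.61 in knockout arrays 1 to 3 and 6.69, 6.32 and 6.30 in control arrays 1 to 3. The highest and the lowest value each fell in a different group, and the groups overlapped. *Hoxb2*, a direct target of Egr2 in the hindbrain, was split. Its probe sets 10380661 and 10380662 averaged 6.17 and 6.21 over the 6 arrays, while 10380663 and 10380664 averaged 3.81 and 2.48, the last of these below the median of the olfactory receptors.

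*Hoxb3*, a patterning gene of the posterior hindbrain, had 2 of 5 probe sets above the limit. Probe set 10380655 read 6.15, 5.97 and 6.28 in knockout arrays and 6.46, 6.19 and 6.29 in control arrays, with overlap. Probe set 10380658 was above the limit on 5 arrays and read 4.51 in control 2, against 5.12 to 5.83 on the other 5. *Hoxb4*, a retinoic acid target of the posterior hindbrain and a regulator of blood stem cells, had 2 of 5 above it. Its probe set 10380651 read 6.44, 6.55 and 6.55 in knockout arrays and 6.54, 6.62 and 6.33 in control arrays. Its other 3 averaged 3.63, 3.67 and 3.78, close to the olfactory receptor median.

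In the middle of the cluster, *Hoxb5*, *Hoxb6* and *Hoxb7* each had 1 probe set above the limit. All 3 act mainly at cervical and thoracic levels of the body axis. *Hoxb5* probe set 10380644 read 5.46, 5.23 and 5.55 in knockout arrays and 5.68, 5.76 and 5.28 in control arrays, with overlap. *Hoxb6* probe set 10380639 read 5.57, 5.29 and 5.25 in knockout arrays and 5.50, 5.70 and 5.78 in control arrays. *Hoxb7* probe set 10380636 read 6.27, 6.10 and 6.26 in knockout arrays and 6.17, 6.09 and 6.23 in control arrays. All 3 overlapped between groups, *Hoxb6* by 1 knockout value above the lowest control value. The other 6 probe sets of these 3 genes averaged from 3.19 to 3.83.

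*Hoxb8*, known for compulsive grooming in mice that lack it and for a lineage of microglia, stayed at the dim level. Its brightest probe set, 10380630, read 4.51, 5.0 and 4.70 in knockout arrays and 4.70, 4.70 and 4.44 in control arrays, and it exceeded the limit on 1 array, knockout 2. *Hoxb9*, a thoracic patterning gene, held the brightest probe set of the cluster. This was 10380625, at 6.82, 6.53 and 6.38 in knockout arrays and 6.64, 6.78 and 6.52 in control arrays. A second *Hoxb9* probe set, 10380623, read 6.27, 6.40 and 6.13 in knockout arrays and 6.48, 6.59 and 6.17 in control arrays. *Hoxb13*, the most posterior member and best known from the tail bud and prostate, had a mean over its 5 probe sets of 4.06, 3.996 and 4.12 in knockout arrays and 3.92, 4.05 and 3.82 in control arrays. Its probe sets averaged from 2.54 to 4.87, the lowest of them below the median of the olfactory receptors.

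The comparison of genotypes asked whether loss of *Abcc1* on the amyloid background goes with another level of these transcripts. No *Hoxb* difference passed. With limma over all 58919 probe sets, 0 of the 41 were called at an adjusted p below 0.05 and 0 had a raw p below 0.05, against 0.00509% and 7.69% of all tested probe sets. The adjusted p lay between 0.659 and 1. Log2 differences, knockout minus control, were above 0 in 22 and below 0 in 18 probe sets, and 1 showed no difference. Their median was 0.01, beside 0.01 for all tested probe sets. The split depended on scaling: with each array centred on its median, 14 were above 0 and 27 below. In bulk tissue, fewer cells that express a gene and less RNA per cell cannot be told apart, and near the dim level a small change of either could go unseen.

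By gene, using the mean of all its probe sets, 5 *Hoxb* genes had values above 0 and 5 below, with a median log2 difference of -0.00 against -0.00 over all 5017 genes. With limma, 0 of 10 were called and 0 had a raw p below 0.05, against 0% and 14.1% of all genes. With the brightest probe set standing for each gene, limma again called 0 of 10, and 1 (*Hoxb6*) had a raw p below 0.05, against 0% and 9.61% of all genes. The 95% intervals of the 10 genes ran from -0.28 at the lowest bound (*Hoxb6*) to 0.28 at the highest (*Hoxb13*). In fold terms these bounds are 0.826 and 1.22 on the signal scale, which understates a change in RNA where part of the signal is background.

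*Hoxb13* had the highest value, with a mean of 4.06 ± 0.06 in knockout and 3.93 ± 0.12 in control arrays (SD, n = 3 each). Its log2 difference was 0.12 (SE 0.07, limma adjusted p = 0.452), and it exceeded the olfactory receptor limit in only 1 probe set on 1 array, control 2. *Hoxb6* had the lowest, with 4.24 ± 0.09 in knockout and 4.36 ± 0.09 in control arrays (SD, n = 3 each), which gave -0.12 on the log2 scale (SE 0.07, limma adjusted p = 0.481). At its probe set above the limit, 10380639, the log2 difference was -0.29 (SE 0.13, limma adjusted p = 0.659). In the limma fit over all probe sets its raw p, 0.0595, was the smallest of the cluster. The raw p below 0.05 with the brightest probe set per gene is of this same probe set. The fits differ only in the rows over which limma pools the variance. The anterior genes had smaller values. *Hoxb1* differed by 0.06 (SE 0.06), *Hoxb2* by -0.06 (SE 0.05), *Hoxb3* by -0.03 (SE 0.08) and *Hoxb4* by 0.02 (SE 0.05).

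The other 4 genes were as close to 0. *Hoxb5* differed by -0.05 on the log2 scale (SE 0.08), *Hoxb7* by -0.05 (SE 0.04), *Hoxb8* by 0.03 (SE 0.08) and *Hoxb9* by 0.06 (SE 0.09). For *Hoxb2* and *Hoxb7* all 3 knockout values lay below all 3 control values, by narrow margins: 4.62, 4.64 and 4.64 in knockout against 4.71, 4.65 and 4.74 in control arrays for *Hoxb2*, and 4.80, 4.78 and 4.81 against 4.85, 4.82 and 4.87 for *Hoxb7*. Such separation occurred in 20.2% of all genes, and here in 2 of 10. In *Hoxb2* the separated probe set was the dimmest one, and both of its bright ones overlapped between groups. Among single probe sets, 4 of 41 were separated, against 13.5% of all tested probe sets. In 1 of them the knockout was higher and in 3 lower, against 7.94% and 5.52% of all tested probe sets, and each of the 4 lay below the olfactory receptor limit.

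**Figure D3:**
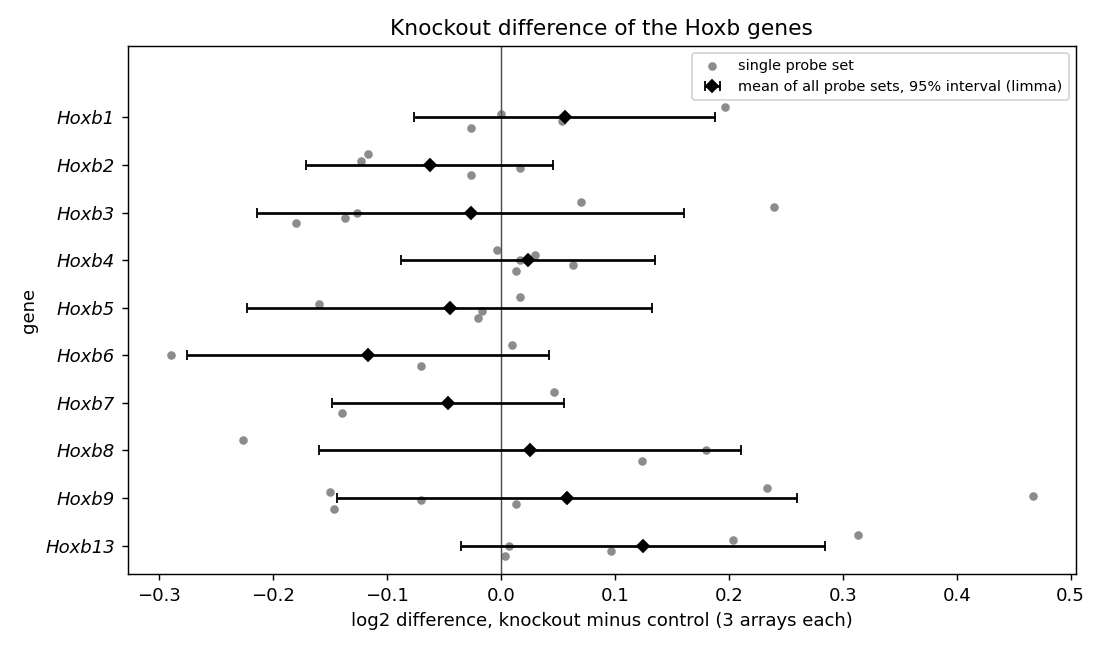
Log2 difference, knockout minus control, of the 10 Hoxb genes as the mean of all probe sets with its 95% limma interval (diamonds), and of each probe set (grey points). Each gene's interval includes 0, and the bounds of the 10 run from -0.28 to 0.28.

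The arrays themselves differed in the signal of *Gabra6* and *Fat2*, genes of cerebellar granule cells. *Gabra6*, a GABA-A receptor subunit of cerebellar granule cells, averaged 3.53, 5.74 and 3.69 over its 12 probe sets in knockout arrays 1, 2 and 3 and 3.87, 3.82 and 6.70 in control arrays 1, 2 and 3. Knockout 2 and control 3 stood apart from the other 4, with 10 and 11 of the 12 probe sets above the olfactory receptor limit against 0 to 2. *Fat2*, a cadherin of granule cells, was also highest in these arrays, at 5.44 in knockout 2 and 5.73 in control 3, against 4.77 to 5.07 in the others. *Slc1a6*, the glutamate transporter of Purkinje cells, was highest in control 3 (6.76) but lowest in knockout 2 (6.42). Limma called 0 of these 3 measured genes of 17 listed for cerebellum, and their mean signal ran from 4.95 to 5.87 in knockout and from 5.14 to 6.40 in control arrays.

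No such split of the arrays was seen in the *Hoxb* signal. Single *Hoxb* probe sets above the limit ranged by 0.18 to 0.53 over the 6 arrays, and single *Gabra6* probe sets by 1.90 to 5.45. The ranges are not a like comparison, because these *Hoxb* probe sets were chosen for lying above the limit on every array. Those left out included wider ranges, such as 3.34 to 4.86 at 10380626. Over all 41 *Hoxb* probe sets the array means were 4.72, 4.68 and 4.71 in knockout and 4.74, 4.72 and 4.63 in control arrays. The mean of the 14 *Hoxb* probe sets above the limit was 6.01, 5.91 and 5.98 in knockout arrays and 6.02, 6.02 and 5.97 in control arrays. Both arrays with high *Gabra6* were the lowest of their group. Without knockout 2 and control 3, a choice made after seeing the data, 14 *Hoxb* probe sets again lay above the limit and 0 of 41 probe sets and 0 of 10 genes were called by limma, with 1 probe set and 0 genes at a raw p below 0.05. The number of *Hoxb* probe sets above the limit was 16, 17 and 15 in knockout arrays and 17, 15 and 16 in control arrays. Replicate spread was modest: the median SD within groups was 0.15 for the 14 probe sets, against 0.23 for 8581 other probe sets above the limit in the same signal range.

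Markers of brainstem neurons had a larger share of probe sets above the olfactory receptor limit than *Hoxb*, 89.1% against 34.1%, but not each marker was bright. Of 18 genes listed for hindbrain and brainstem neurons 5 were measured, and 0 were called by limma, with 2 at a raw p below 0.05, a share to be set beside the 14.1% of all genes. Their median log2 difference was -0.03, with 4 values below 0. It was 0.01 with 2 below 0 at the brightest probe set per gene, and 0.05 with 2 below 0 without knockout 2. *Tph2*, the enzyme of serotonin synthesis in the raphe nuclei of the brainstem, read 6.35, 6.59 and 6.49 in knockout arrays and 6.71, 6.93 and 6.99 in control arrays over 12 probe sets, which all lay above the limit. All knockout values lay below all control values, but the difference of -0.40 (SE 0.09) did not pass (limma adjusted p = 0.215), and it was -0.22 at the brightest probe set. *Slc6a4*, the serotonin transporter, differed by -0.30 (SE 0.09, limma adjusted p = 0.252) with overlap between groups, and by -0.08 at its brightest probe set. *Glra1*, a glycine receptor subunit of brainstem and spinal cord, differed by 0.13 (SE 0.11) and had 9 of 9 probe sets above the limit. *Lhx4*, a transcription factor of motor and hindbrain neurons, differed by -0.03. It averaged 5.48 in knockout and 5.51 in control arrays, with 4 of 6 probe sets above the limit. *Tlx3* had 2 of 3 probe sets above the limit, though the mean of its probe sets was low, at 4.85 in both groups. Whether the brainstem share of the samples differed was not tested.

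**Figure D4:**
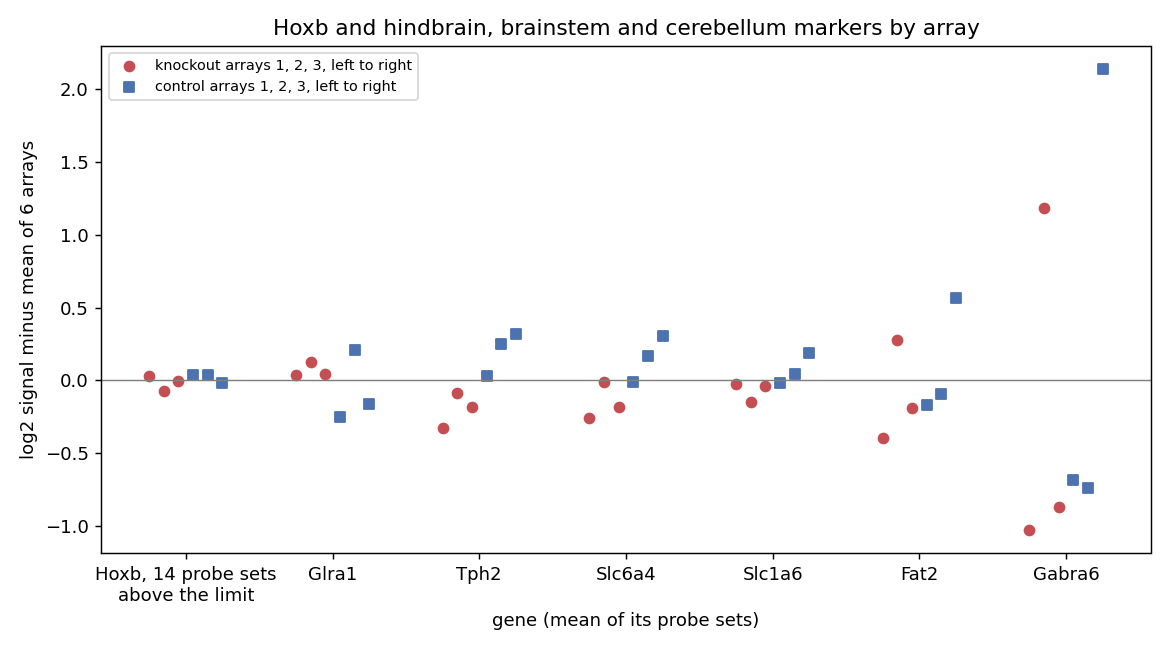
Log2 signal minus its mean over the 6 arrays for the mean of 14 Hoxb probe sets and for brainstem (Glra1, Tph2, Slc6a4) and cerebellum (Slc1a6, Fat2, Gabra6) markers, with knockout arrays 1 to 3 left of control arrays 1 to 3. Gabra6 stands high in knockout 2 and control 3, and no such split is seen for Hoxb. Its points are means over 8 genes, from probe sets chosen for lying above the dim limit on all 6 arrays.

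General brain identity was clear. All 7 measured of 18 listed brain genes were bright, with list means of 10.10 to 10.21 in knockout and 10.16 to 10.22 in control arrays and 0 genes called by limma. *Syt1*, a synaptic vesicle calcium sensor, differed by 0.05, *Aldoc*, an astrocyte and Purkinje cell enzyme, by -0.02, *Mapt*, which encodes tau, by 0.12, and *Gfap*, the astrocyte filament, by -0.48 (SE 0.25, limma adjusted p = 0.427). The *Gfap* value was -0.24 without knockout 2 and -0.27 without control 3. The forebrain list, with 8 of 26 genes measured, had a mean signal of 8.32 to 8.37 in knockout and 8.32 to 8.37 in control arrays and a median log2 difference of -0.03, with 3 values above 0 and 5 below. In it *Bcl11b*, a factor of deep-layer cortical and striatal neurons, differed by 0.16 (limma adjusted p = 0.309) and *Mef2c*, a neuronal activity-regulated factor, by 0.11, while *Neurod2*, a factor of cortical excitatory neurons, differed by -0.19 (-0.02 at its brightest probe set and -0.03 without control 3). The choroid plexus list, with 4 of 14 measured, had list means of 7.29 to 7.44 in knockout and 7.26 to 7.29 in control arrays and 0 called. Its potassium channel gene *Kcnj13* and coagulation factor gene *F5* both differed by 0.21 (limma adjusted p = 0.284 and 0.215), *F5* by 0.04 at its brightest probe set. The other 2, *Ace*, a peptidase gene, and *Sostdc1*, a secreted inhibitor gene, differed by -0.03 and -0.01.

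The genes that act on or with Hox genes had larger shares of probe sets above the olfactory receptor limit than the 34.1% of the cluster, and 0 of them passed. The share was 94.7% for the retinoic acid pathway, 77.3% for upstream patterning genes and 76.5% for the Hox partner *Meis1*, beside 71.2% of all tested probe sets. These lists were not counted against the keratin and myosin limit. Of 36 Polycomb and trithorax genes listed, 10 were measured, with 91.1% of their probe sets above the olfactory receptor limit. All 10 lay above 0 in the values as deposited, and 7 of 10 after quantile normalization or median centring. Their median log2 difference was 0.09, against -0.00 over all genes, and 0 were called by limma, with 2 of 10 at a raw p below 0.05 against 14.1% of all genes. *Kdm6b*, which removes the repressive histone mark that Polycomb places, averaged 6.97 ± 0.04 in knockout and 6.75 ± 0.06 in control arrays (SD, n = 3 each). Its log2 difference of 0.23 (SE 0.05) did not pass (limma adjusted p = 0.215), and it was 0.03 at its brightest probe set. *Pcgf2* and *Suz12*, subunits of the 2 Polycomb complexes, differed by 0.18 (limma adjusted p = 0.292) and 0.08, and *Epop*, a Polycomb partner, by 0.20.

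In the retinoic acid pathway 5 of 25 genes were measured, 4 above 0 and 1 below (3 and 2 after quantile normalization or median centring). The median log2 difference was 0.06 and limma called 0. At the brightest probe set per gene the direction turned, with 2 above 0, 3 below and a median of -0.12. *Ncor1*, the corepressor of retinoic acid and thyroid receptors, differed by 0.17 (SE 0.05, limma adjusted p = 0.248), with all knockout values above all control values. The receptor genes *Rara* and *Rxrg* differed by 0.06 and 0.09, and the retinol dehydrogenase gene *Rdh5* by -0.15. At the brightest probe set *Rara* differed by -0.25 and *Rdh5* by -0.33. Of 18 upstream patterning genes, 4 were measured and 0 called. *Egr2*, the activator of *Hoxb2*, differed by 0.02 (SE 0.17), and by -0.17 without control 3. *Gbx2* and *En1*, which act around the border of midbrain and hindbrain, differed by 0.09 and -0.10, and *Irx2* by -0.14. *Meis1*, a Hox partner and the 1 measured of 12 such genes, differed by 0.03 (SE 0.10; -0.05 without knockout 2 or without control 3). Of 29 genes listed from the other Hox clusters, 0 had probe sets in the table used here. It holds mainly genes of chromosomes 1, 10, 11, 12 and 13, so they were not analysed.

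The genes whose array-to-array deviations most resembled those of the 14 *Hoxb* probe sets were *Map3k3*, *Apol7d*, *Cfap126*, *Rnf215* and *Adap2*. Likeness was Pearson's r over 6 arrays of deviations from the group means, among 4199 genes with at least 3 probe sets. It ran from 0.987 (*Adap2*) to 0.997 (*Map3k3*), and 86 genes exceeded 0.9. These genes were picked for the highest r over few arrays that share their normalization, so the values describe this table and carry no test. The deviations were small, with an SD of 0.06 for *Map3k3* and 0.11 for *Apol7d* on the log2 scale.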

How the data were processed

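Total RNA of 6 mouse brain samples was hybridised to 1-colour whole-transcript arrays read per exon-level probe set. The authors deposited 1 table of log2 signals, with the log base inferred from the values, which run from 1.69 to 14.41. MAS5 is the one tool in the submitters' processing notes, and no version or scaling step is stated there. The median over tested probe sets was 7.04 to 7.09 per array, and array pairs correlated between 0.984 and 0.990, so values were used as deposited. IDs below the first annotated probe set (6616 of 65535) were taken as control features and left out. Of 58919 tested probe sets 53644 had 1 symbol, 877 several and 4398 none; symbols were updated through the RefSeq gene table of GRCm38.p6. The array's build is not given, so that table gave only names, chromosomes and gene order. Of the 5017 genes, 1550 lay on chromosome 11, 1144 on 1, 944 on 10, 645 on 13 and 635 on 12. The values therefore cover part of the genome, and all genes here means the genes with values. A list gene called not measured had no probe set among these values, which does not show that the array lacks it.

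Knockout minus control was fitted with limma 3.58.1 (R 4.3.3; lmFit and eBayes, no trend). Two-sided p-values were adjusted by Benjamini-Hochberg over all probe sets, or over all genes for means of a gene's probe sets, with a threshold of 0.05. The fit was tested on simulated data. The number of arrays limits the precision. Named genes were the 10 members, 3 measured neighbours on each side, up to 4 genes per list with the smallest raw p, *Gfap*, *Aldoc*, *Syt1*, *Mapt* and the 5 genes most alike. The members and the 11 lists were chosen with earlier results of these data known. Skeletal myosins and type I keratins served as a second set of dim signals. Alternatives covered normalization, a filter on dim probe sets, a trended robust variance, array weights, a replicate block, single arrays left out, the brightest probe set per gene, the dim limit and the threshold.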

Additional observations from a re-analysis of the deposited data

How the results depend on the processing

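The count of *Hoxb* probe sets above the dim limit on all arrays, 14 in the main setting, was 8 with the 99th percentile of the olfactory receptors, 0 with the 95th percentile of keratins and skeletal myosins and 0 with that of the control features. It was 17 with the 90th percentile, 16 when 3 of 6 arrays sufficed, and 14 to 15 without 1 array. The limma counts of called *Hoxb* probe sets, *Hoxb* genes and list genes were 0 in every one of 14, 14 and 13 alternatives, with smallest adjusted p of 0.545, 0.244 and 0.0999. With the dimmest 1 in 3 probe sets left out, 8 *Hoxb* probe sets of 6 genes remained to be tested. Of 136 alternative values of the 10 gene differences, 18 had the other sign, in each gene but *Hoxb6* and *Hoxb13*, and all lay between -0.29 and 0.19. Same-numbered arrays did not deviate together (correlations 0.037, -0.07 and -0.1). Deviations from means of 3 arrays cannot decide whether the samples were paired. With the replicate number as a block, 0 *Hoxb* probe sets, 0 *Hoxb* genes, 0 list genes and 0 of all tested probe sets were called. Dim signals limit what a difference in RNA can show. Without knockout 2, 6 of 10 Polycomb values lay above 0, and without control 3, 2 of 3 cerebellum values did, against 0 of 3 with all arrays.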

Other observations

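The *Hoxb* cluster lay between neighbours of unlike signal. On the *Hoxb13* side, *Ttll6*, a tubulin-modifying enzyme gene, had 1 of 14 probe sets above the olfactory receptor limit, *Calcoco2*, an autophagy receptor gene, 0 of 5, and *Atp5g1*, a mitochondrial ATP synthase subunit gene, 2 of 2. On the *Hoxb1* side, *Skap1*, an adaptor of T cells, had 5 of 16, the non-coding gene *Gm11529* 1 of 1 and *Snx11*, a sorting nexin gene, 10 of 10. With limma 0 of these 6 were called, and log2 differences ran from -0.07 (*Atp5g1*) to 0.15 (*Ttll6*).

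Among the probe sets inside the cluster by the order of IDs, 3 were not members. Probe set 10380633, annotated to both *Hoxb8* and *Hoxb7*, averaged 3.01 ± 0.15 in knockout and 2.88 ± 0.14 in control arrays (SD, n = 3 each). The probe sets without a symbol were 10380621, between *Hoxb13* and *Hoxb9*, at 3.31 in both groups, and 10380647, between *Hoxb5* and *Hoxb4*, at 2.57 in knockout and 2.58 in control arrays. All 3 were below the olfactory receptor limit on all 6 arrays.

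Single arrays departed at a few dim *Hoxb* probe sets. *Hoxb9* probe set 10380626 read 4.57, 4.45 and 4.86 in knockout arrays and 4.57, 4.57 and 3.34 in control arrays, so that its log2 difference of 0.47, the highest of the cluster, rests on control 3. *Hoxb9* probe set 10380627 read 4.74, 4.52 and 4.81 in knockout arrays and 5.41, 4.10 and 5.01 in control arrays. In these probe sets the spread lay in the control arrays, with SDs of 0.71 and 0.67 against 0.21 and 0.15 in the knockout arrays.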
